A study of Homo sapiens with 6 samples.

Results

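A set of 9 genes was followed that act in epithelial cells, namely the grainyhead-like factors GRHL1, GRHL2, and GRHL3, the zinc finger factors OVOL1, KLF4, and KLF5, the ETS factors ELF3 and EHF, and the splicing regulator ESRP1. All probes that carry one of these names on the array were taken, which gave all 9 genes out of 34423 gene names and 12 probes out of 50599. GRHL1, GRHL2, and GRHL3 have 2 probes each and the other 6 genes have 1. The cells were HSC-3, KON, and Ca9-22, established lines from oral squamous cell carcinoma (OSCC). Each line was transfected with siDLEU1-2, a small interfering RNA against the long noncoding RNA DLEU1, or with a commercial control siRNA without a human target (siCtrl), and RNA was taken after 72 h. One-color arrays were hybridized with 1 sample per line and siRNA, 6 in all, on 1 slide. The lines were therefore the only replicates, a value within a line had no error of its own, and a single siRNA sequence stood for the knockdown.

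Epithelial identity is kept by transcription factors that open and drive the genes of junctions and barriers. Grainyhead-like factors bind the enhancers of cadherin and claudin genes, OVOL1 represses mesenchymal genes, KLF5 is a factor of the proliferating layers and KLF4 of the differentiating layers, and ELF3 and EHF are ETS factors found largely in epithelia. ESRP1 binds RNA and sets the epithelial splice forms of transcripts such as CD44 and FGFR2. Loss of these regulators is a known part of the epithelial-mesenchymal transition (EMT), which the factors of the SNAI, ZEB, and TWIST families promote.

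Levels are given as log2 of the background-subtracted processed signal, relative to the 75th percentile of the same array, so that 0 is the 75th percentile. This percentile lay between 200.5 and 256.8 units of signal on the 6 arrays. DLEU1 itself was at 1.39, 2.16, and 1.56 after siCtrl in HSC-3, KON, and Ca9-22, and at -2.71, -1.48, and -1.88 after siDLEU1-2 (mean log2 fold change -3.72 ± 0.34, SD, n = 3 lines; limma adjusted p = 0.0227), and the mean with normexp background correction was -2.69. The labels of the 6 arrays therefore fit the level of the target in every line. All 6 epithelial markers of a first list (KRT5, KRT14, KRT6A, KRT17, EPCAM, and CDH1) were well above background on all arrays by their brightest probe. For KRT14 in Ca9-22, this probe was at 3.59 after siCtrl and 5.06 after siDLEU1-2. The other KRT14 probes were at -2.95 and -1.33 after siCtrl there, and at -3.82 and -2.50 after siDLEU1-2. limma called CDH1 higher and KRT6A lower (mean log2 fold change -1.33 ± 0.13; adjusted p = 0.0247). At an unadjusted p under 0.05, EPCAM was also higher and KRT5 also lower. Of the simple epithelium markers KRT8, KRT18, and KRT19, KRT8 (mean 2.47 ± 1.12; adjusted p = 0.0452) and KRT18 (mean 1.40 ± 0.19; adjusted p = 0.0247) rose by limma. Of 6 fibroblast markers, COL1A2, COL3A1, LUM, and PDGFRB were well above background on no array, while COL1A1 was so on all 6 and rose after siDLEU1-2 (mean log2 fold change 1.46 ± 0.57; limma adjusted p = 0.0423). The summed linear level of the fibroblast markers, with 1 as the 75th percentile, was 0.746 to 0.896 after siCtrl and 1.72 to 2.93 after siDLEU1-2, and DCN was well above background on 1 array, that of HSC-3 after siDLEU1-2. Of 4 leukocyte markers, CD14 was well above background on all 6 arrays (mean log2 fold change 0.51 ± 0.08; limma adjusted p = 0.0866), and PTPRC, CD3E, and ITGAM were so on at most 2. The summed level of these markers was 0.393 to 48.3 after siCtrl and 0.486 to 64.7 after siDLEU1-2, with the highest values in HSC-3, where CD14 was at 5.58 and 6.01. Of 4 endothelial markers, VWF and CDH5 were well above background on 5 arrays, PECAM1 on 1, and TIE1 on none, and the summed level was 0.198 to 0.814 after siCtrl and 0.374 to 1.64 after siDLEU1-2. limma called 0 genes of the leukocyte and endothelial lists, with CD14 and CDH5 higher at an unadjusted p under 0.05. The part of these markers in the results below was not tested. In bulk RNA, a change in the share of cells with a gene and a change in its RNA per cell cannot be told apart. Of the 12 probes of the 9 genes, 10 were well above background on all 6 arrays and 2 on none, and every gene had at least 1 measured probe. Where a gene had 2 probes, the brighter one stands for it.

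After siDLEU1-2, OVOL1 rose in all 3 lines, and GRHL3, ELF3, EHF, and KLF5 were also higher in each line but did not pass the test. KLF4 was higher in HSC-3 and KON and lower in Ca9-22. GRHL1, GRHL2, and ESRP1 were not called, and of these GRHL1 was lower in each line by a small amount. limma was fitted to all 19956 probes that passed the filter on dim probes, and a probe was called at a Benjamini-Hochberg adjusted p under 0.05. It called 1 of the 9 genes higher, where 3.98% of all tested probes were called higher, and 0 lower, where 4.52% of all tested probes were. At an unadjusted p under 0.05, 5 of the 9 genes were higher, against 14.6% of all tested probes, and 0 were lower, against 14.9%. Over all tested probes, limma called 1697, but 0 without HSC-3 or without KON (4547 and 4676 at an unadjusted p under 0.05) and 244 without Ca9-22. The genes higher in all 3 lines, whatever the size, were 5 of 9, against 26.9% of all tested probes. The median of the 9 mean log2 fold changes was 0.75, and that of all tested probes was 0.0073. These genes were chosen with earlier results of these data known, so the shares are given without a test of the set.

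**Figure D1:**
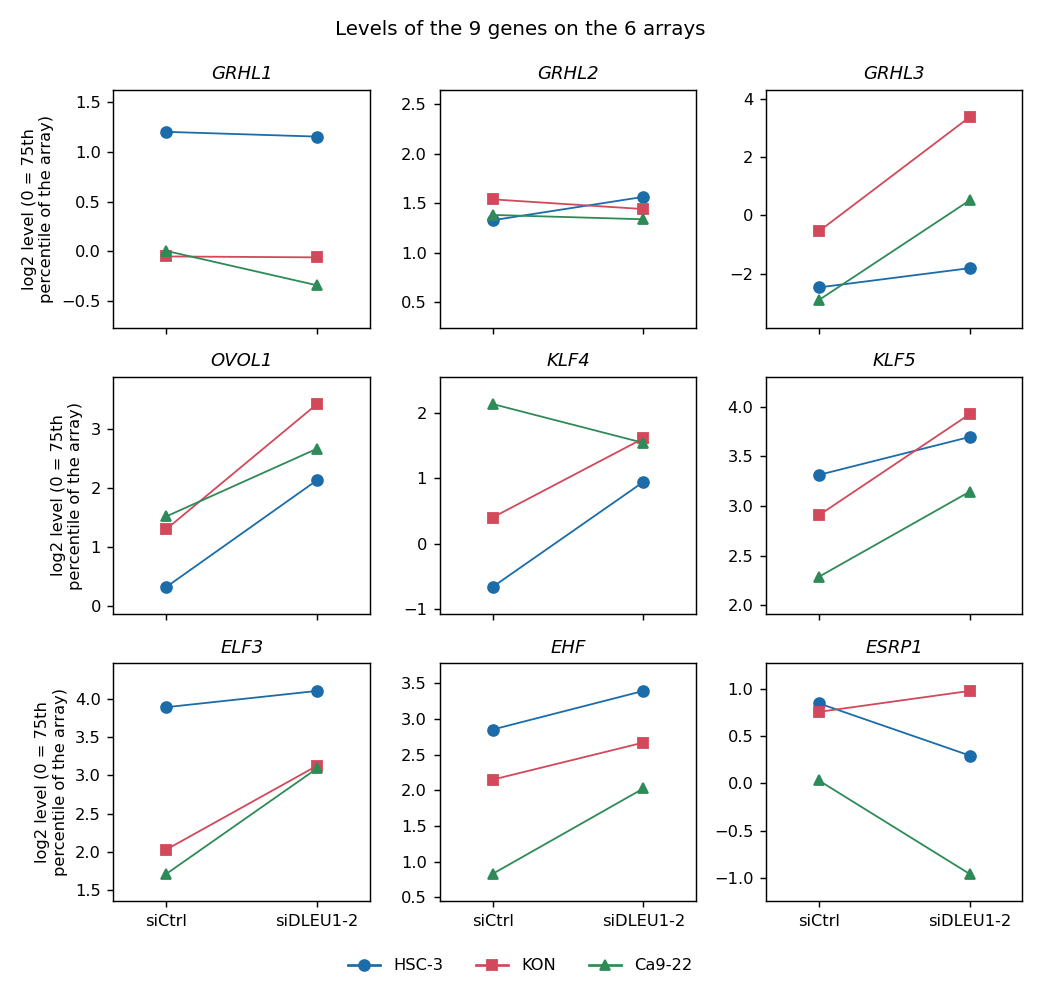
Log2 level of each of the 9 genes (y axis, 0 is the 75th percentile of the array) after siCtrl and siDLEU1-2 (x axis), with a line joining the 2 arrays of each cell line. The y axes differ in range between panels. OVOL1 climbs in all lines from 0.33 to 1.52 after siCtrl to 2.13 to 3.42 after siDLEU1-2, GRHL2 stays between 1.33 and 1.56 on all arrays, and KLF4 crosses between lines.

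Among the grainyhead-like factors, GRHL3 varied most. GRHL3 drives late steps of barrier formation in the epidermis, and its measured probe lies on chromosome 1 of hg19, from 24681534 to 24681593. In HSC-3, KON, and Ca9-22, GRHL3 was at -2.47, -0.55, and -2.91 after siCtrl and at -1.81, 3.38, and 0.52 after siDLEU1-2. The level was thus higher in each line, with a 1.58-fold difference for HSC-3, a 15.2-fold one for KON, and a 10.72-fold one for Ca9-22, but the groups overlapped, since the HSC-3 level after siDLEU1-2 lay under the KON level after siCtrl. The mean log2 fold change was 2.67 ± 1.76 (SD, n = 3), and limma gave an adjusted p of 0.0801. The mean was 1.90 with normexp background correction, 3.67 without HSC-3, and 2.04 without KON, and was not called in any of these cases. The second GRHL3 probe, on chromosome 1 from 24690909 to 24690968, is assigned by the files to another transcript (NM_198174, where the first has NM_198173) and was well above background on no array.

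GRHL2, an activator of E-cadherin and claudin genes, had nearly the same level everywhere. Its brighter probe, on chromosome 8 from 102681572 to 102681631, was at 1.33, 1.54, and 1.38 after siCtrl in HSC-3, KON, and Ca9-22 and at 1.56, 1.44, and 1.34 after siDLEU1-2. The groups overlapped, and the mean log2 fold change was 0.03 ± 0.18 (SD, n = 3), with a limma 95% interval from -0.35 to 0.42 and an adjusted p of 0.913. The dimmer GRHL2 probe, from 102678918 to 102678977, differed on the log2 scale by 0.54 (HSC-3), -0.34 (KON), and 1.13 (Ca9-22), and limma gave an adjusted p of 0.395. The probes of this gene thus differed most in Ca9-22, where one was 2.18-fold higher and the other 1.03-fold lower after siDLEU1-2.

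GRHL1, which acts on desmosomal genes, was at 1.20, -0.05, and 0.0019 after siCtrl in HSC-3, KON, and Ca9-22 and at 1.16, -0.06, and -0.35 after siDLEU1-2, by its probe on chromosome 2 from 10142232 to 10142291. HSC-3 stood above the other lines after either siRNA, and the groups overlapped. The mean log2 fold change was -0.13 ± 0.18 (SD, n = 3), with a limma 95% interval from -0.52 to 0.25 and an adjusted p of 0.591. It was -0.028 without Ca9-22, -0.20 without KON, and -0.18 without HSC-3, and was called in none of these fits. The other GRHL1 probe, from 10132177 to 10132236, was well above background on no array.

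OVOL1 is a zinc finger repressor of mesenchymal genes, and its single probe lies on chromosome 11 from 65564519 to 65564578. For HSC-3, KON, and Ca9-22, OVOL1 was at 0.33, 1.30, and 1.52 after siCtrl, and at 2.13, 3.42, and 2.67 after siDLEU1-2. Every siDLEU1-2 array stood above every siCtrl array, which held for 1 of the 9 genes and for 5.67% of all tested probes. HSC-3 rose 3.50-fold, KON 4.34-fold, and Ca9-22 2.21-fold. The log2 fold change averaged 1.69 ± 0.50 (SD, n = 3; limma adjusted p = 0.0305). OVOL1 was the single gene of the 9 over 2-fold higher in all 3 lines, as were 2.08% of all tested probes, and 0 of the 9 were over 2-fold lower in all 3 lines, as were also 2.08% of the probes. The call did not hold without HSC-3 (limma adjusted p = 0.106) or without KON (adjusted p = 0.111), and held without Ca9-22.

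The Krüppel-like factors behaved in different ways. KLF5 was at 3.31, 2.91, and 2.28 after siCtrl in HSC-3, KON, and Ca9-22 and at 3.70, 3.93, and 3.14 after siDLEU1-2, by its probe on chromosome 13 from 73650979 to 73651038. It was higher in each line, by 1.30-fold, 2.03-fold, and 1.81-fold, and the groups overlapped between Ca9-22 after siDLEU1-2 and HSC-3 after siCtrl. The mean log2 fold change was 0.75 ± 0.33 (SD, n = 3), with a limma adjusted p of 0.0729, and with normexp background correction the value was 0.72 and was called (adjusted p = 0.0488).

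KLF4 in HSC-3, KON, and Ca9-22 was at -0.66, 0.40, and 2.13 after siCtrl, by its probe on chromosome 9 from 110248049 to 110248108. After siDLEU1-2 it was at 0.94, 1.61, and 1.54, so that the lines lay closer together than after siCtrl. The level was 3.04-fold higher in HSC-3 and 2.31-fold higher in KON, but 1.51-fold lower in Ca9-22, the line with the highest KLF4 level after siCtrl. The mean log2 fold change was 0.74 ± 1.17 (SD, n = 3; limma adjusted p = 0.351), which became 1.41 without Ca9-22 (adjusted p = 0.0698), 0.51 without KON (adjusted p = 0.66), and 0.31 without HSC-3 (adjusted p = 0.759). A difference between lines in this response could not be tested, as each line had 1 array per siRNA.

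Of the ETS factors, ELF3 in HSC-3, KON, and Ca9-22 was at 3.89, 2.03, and 1.71 after siCtrl, and at 4.11, 3.13, and 3.09 after siDLEU1-2, by its probe on chromosome 1 from 201984429 to 201984488. The HSC-3 level was the highest after either siRNA and differed by 1.16-fold, while ELF3 was 2.14-fold higher in KON and 2.61-fold higher in Ca9-22. The mean log2 fold change was 0.90 ± 0.61 (SD, n = 3; limma adjusted p = 0.106), and the groups overlapped through the HSC-3 level after siCtrl. EHF, another ETS factor of epithelia, was at 2.85, 2.15, and 0.83 after siCtrl in HSC-3, KON, and Ca9-22 and at 3.39, 2.67, and 2.02 after siDLEU1-2, by its probe on chromosome 11 from 34681911 to 34681970. The order of the lines was the same after both siRNAs, and the groups overlapped. EHF was 1.46-fold higher for HSC-3, 1.43-fold for KON, and 2.29-fold for Ca9-22. Its log2 fold change averaged 0.75 ± 0.38 (SD, n = 3; limma adjusted p = 0.0838).

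ESRP1, the splicing regulator, was at 0.85, 0.76, and 0.03 after siCtrl in HSC-3, KON, and Ca9-22 and at 0.30, 0.98, and -0.96 after siDLEU1-2, by its probe on chromosome 8 from 95680359 to 95680418. It was 1.47-fold lower in HSC-3 and 1.98-fold lower in Ca9-22 but 1.17-fold higher in KON, and the groups overlapped. The mean log2 fold change was -0.44 ± 0.61 (SD, n = 3), with a limma 95% interval from -1.14 to 0.26 and an adjusted p of 0.339. It was -0.77 without KON, -0.38 without HSC-3, and -0.17 without Ca9-22, and limma called it in none of these fits.

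**Figure D2:**
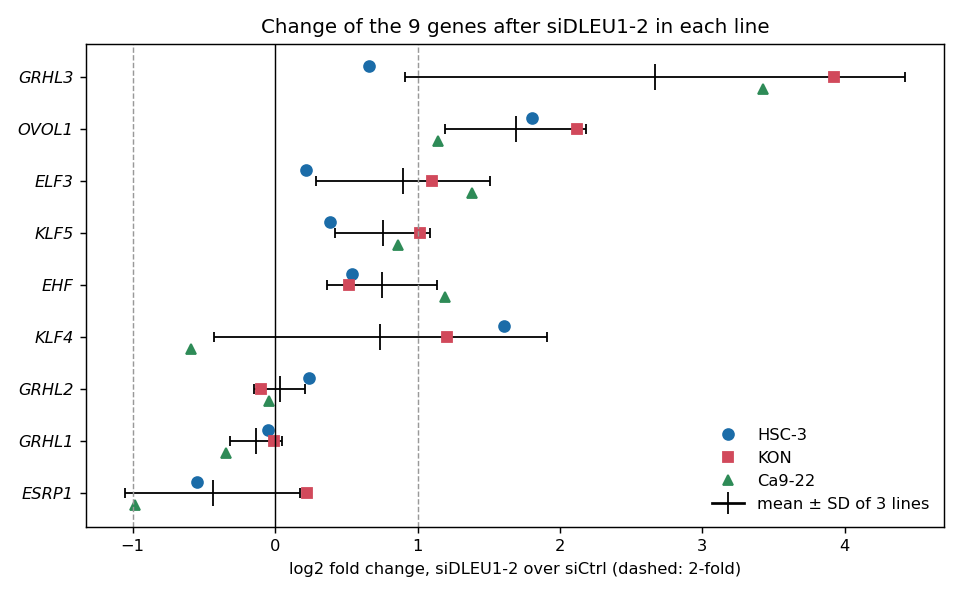
Log2 fold change of siDLEU1-2 over siCtrl (x axis) for each gene (y axis), with a marker per cell line and a black bar for the mean ± SD of the 3 lines. Dashed lines mark 2-fold. OVOL1 is past 2-fold in all lines, GRHL3 in KON (3.92) and Ca9-22 (3.42), and KLF4 has opposite signs in Ca9-22 (-0.59) and HSC-3 (1.60).

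The number of genes over 2-fold higher differed by line. In HSC-3 these were OVOL1 and KLF4, 2 of the 9 genes, against 7.53% of all tested probes. In KON they were OVOL1, GRHL3, ELF3, KLF4, and KLF5, 5 of the 9 against 7.30% of the probes. In Ca9-22 they were OVOL1, GRHL3, ELF3, and EHF, 4 of the 9 against 6.56%. GRHL3, ELF3, and KLF5 had their smallest change in HSC-3, where the median of the 9 log2 fold changes was 0.38, against 1.02 in KON and 0.86 in Ca9-22.

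The start regions of the genes that were higher after siDLEU1-2 in every line are shown, though none of the 4 printed here passed the test. The RefSeq promoter table (GRCh38.p14) held GRHL3, ELF3, EHF, and KLF5 of these, and OVOL1 was not in it. Each sequence is the 250 bases before an annotated start, 5′ to 3′ on the strand of the gene. Where a gene had 2 starts, the upstream one is given. Capitals mark the letters CACCC, bound by Krüppel-like factors, or CAGGTG, bound by SNAI and ZEB factors, on either strand.
GRHL3, chr1:24319107-24319356, plus strand: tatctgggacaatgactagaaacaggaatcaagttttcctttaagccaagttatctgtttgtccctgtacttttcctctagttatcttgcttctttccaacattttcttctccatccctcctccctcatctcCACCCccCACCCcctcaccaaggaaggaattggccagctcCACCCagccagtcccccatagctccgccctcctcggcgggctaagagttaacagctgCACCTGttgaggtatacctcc
ELF3, chr1:202010337-202010586, plus strand: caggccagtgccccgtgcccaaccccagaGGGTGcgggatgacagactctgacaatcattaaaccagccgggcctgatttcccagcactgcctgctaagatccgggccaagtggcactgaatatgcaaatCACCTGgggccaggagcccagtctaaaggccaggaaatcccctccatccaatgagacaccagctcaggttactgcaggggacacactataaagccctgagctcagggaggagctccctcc
EHF, chr11:34624007-34624256, plus strand: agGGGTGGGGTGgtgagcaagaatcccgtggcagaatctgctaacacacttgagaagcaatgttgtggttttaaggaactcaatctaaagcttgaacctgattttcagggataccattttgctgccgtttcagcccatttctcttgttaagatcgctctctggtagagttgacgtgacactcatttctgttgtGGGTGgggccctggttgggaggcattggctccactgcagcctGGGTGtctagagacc
KLF5, chr13:73054726-73054975, plus strand: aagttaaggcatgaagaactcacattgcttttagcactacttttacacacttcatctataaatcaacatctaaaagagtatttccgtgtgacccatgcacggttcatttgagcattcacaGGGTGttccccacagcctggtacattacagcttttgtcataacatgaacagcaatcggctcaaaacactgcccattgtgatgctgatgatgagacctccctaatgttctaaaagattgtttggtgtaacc

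Over the 9 start regions held for 6 of the genes, CACCC or its reverse complement GGGTG was found in 6, and 54.7% of all 35116 regions of this length had it. CAGGTG or CACCTG was found in 2 of the 9, those of GRHL3 and ELF3 printed above, and in 17.5% of all regions. The grainyhead-like letters AACCGGTT, the OVOL letters CCGTTA, and the ETS letters CCGGAAG were in 0 of the 9 regions, and in 0.117%, 2.45%, and 8.52% of all regions, with both strands read. No pair of these motifs overlaps in letters in the 4 sequences printed. The antisense strand of siDLEU1-2 is shown with its seed, bases 2 to 8, in capitals, because a short interfering RNA can pair with other transcripts through it.
siDLEU1-2 antisense: uUAAGUGCgauaaccccugua

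The DNA letters complementary to this seed, GCACTTA, were in 0 of the 12 probe sequences of the 9 genes, which cover only 60 bases of transcript each.

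Levels were also compared between the cell lines, over the arrays of both siRNAs. A limma F test of the cell line terms called 6 of the 9 genes (GRHL1, GRHL3, OVOL1, ELF3, EHF, and ESRP1), and such a call was also made for 53.8% of all tested probes. KON and HSC-3 differed in 4 of the genes against 36.2% of the probes, Ca9-22 and HSC-3 in 4 against 36.6%, and Ca9-22 and KON in 2 against 33.2%. By the mean of both arrays of a line, HSC-3 had the highest level of 4 of the genes, KON of 4, and Ca9-22 of KLF4 alone. Ca9-22 had the lowest level of 6.

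GRHL1 was highest in HSC-3, at 1.18 over both arrays, and KON was lower by -1.24 ± 0.18 (SE; limma adjusted p = 0.0120) and Ca9-22 by -1.35 ± 0.18 (adjusted p = 0.00994), while KON and Ca9-22 were not distinguished (adjusted p = 0.657). ELF3 had the same order, with KON at -1.42 ± 0.32 (SE; limma adjusted p = 0.0303) and Ca9-22 at -1.60 ± 0.32 (adjusted p = 0.0231) relative to HSC-3, and no call between KON and Ca9-22 (adjusted p = 0.699). EHF fell off from HSC-3 at 3.12 to KON at 2.41 and Ca9-22 at 1.43, and Ca9-22 differed from HSC-3 by -1.69 ± 0.24 (SE; limma adjusted p = 0.0109) and from KON by -0.98 ± 0.24 (adjusted p = 0.0376), but KON and HSC-3 were not told apart (adjusted p = 0.0764). These genes shared HSC-3 as the line of the highest level. KLF5 was also lowest in Ca9-22, by -0.79 ± 0.22 (SE) from HSC-3, although its F test had an adjusted p of 0.0585.

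GRHL3 and OVOL1 were instead highest in KON by the mean of both arrays. For OVOL1 this came from the array after siDLEU1-2, since Ca9-22 (1.52) stood above KON (1.30) after siCtrl. GRHL3 in KON was above HSC-3 by 3.56 ± 0.83 (SE; limma adjusted p = 0.0317), most of which lay in the array after siDLEU1-2, and neither KON and Ca9-22 (adjusted p = 0.0712) nor Ca9-22 and HSC-3 (adjusted p = 0.401) were distinguished. OVOL1 in KON was above HSC-3 by 1.13 ± 0.28 (SE; limma adjusted p = 0.0363), and Ca9-22 lay between them, called apart from neither (adjusted p = 0.0695 and 0.489). ESRP1 over both arrays was at 0.87 in KON, 0.57 in HSC-3, and -0.46 in Ca9-22, though HSC-3 was the highest after siCtrl, and Ca9-22 and KON differed by -1.33 ± 0.33 (SE; limma adjusted p = 0.0379). KLF4 ran the other way, from 0.14 in HSC-3 to 1.84 in Ca9-22 with KON between them by the same mean, while KON was the highest after siDLEU1-2, without passing the F test (adjusted p = 0.114). GRHL2 gave no detectable order (adjusted p = 0.792).

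**Figure D3:**
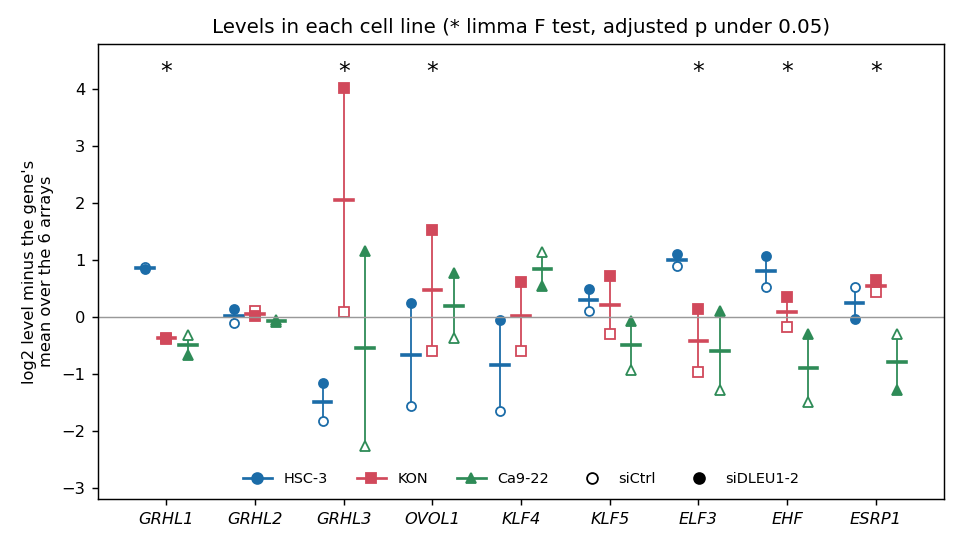
Log2 level of each gene minus its mean over the 6 arrays (y axis), by gene (x axis) and cell line, with open markers for siCtrl, filled markers for siDLEU1-2, and a short bar for the mean of both arrays. Asterisks mark the 6 genes called by the F test of the cell lines. GRHL1 sits apart in HSC-3, GRHL2 is alike in all lines, and the GRHL3 array of KON after siDLEU1-2 stands above all others.

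The genes with the most similar pattern were found by the root mean square difference of log2 values over the 6 arrays, after subtraction of each gene's mean. OVOL1 ran closest to DUSP1 (0.263) and FAM102A (0.293), and DUSP1, a phosphatase of MAP kinases, was higher by 1.78, 2.13, and 1.84 on the log2 scale in HSC-3, KON, and Ca9-22. GRHL3, with the widest range of the 9 genes (6.28 over the 6 arrays), was nearest to KCNJ12 (0.656) and TRIM54 (0.757). KLF4 was nearest to C14orf128 (0.299) and RNF208 (0.302), ELF3 to ZNF518B (0.216) and BNIP3L (0.231), EHF to FRMD6 (0.133) and AKIRIN1 (0.144), and KLF5 to FAM126B (0.104) and CSNK1G3 (0.109). ESRP1 was nearest to UCK2 (0.136) and TTC28-AS1 (0.138), GRHL1 to SHMT1 (0.0701) and BRWD1 (0.0757), and GRHL2 to EIF4H (0.0328) and ACR (0.0445). This measure is not scaled by range, and it was smallest for GRHL2, which had the narrowest range (0.24).

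Genes related to the 9 by function were read from 5 lists of 72 genes in all, of which 59 were tested by limma, with 7 higher and 6 lower. The shares of all tested probes to set beside these and the lists below were 3.98% called higher and 4.52% lower, or 14.6% and 14.9% at an unadjusted p under 0.05. One of the 6, IVL, passed the filter through its siCtrl arrays alone. Without HSC-3 or without KON, 0 of them were called by limma (19 and 22 at an unadjusted p under 0.05), and 5 were called without Ca9-22. In the list of 22 relatives of the 9 genes (other KLF, ELF, OVOL, ESRP, and grainyhead-related genes), 17 were tested and 0 were called in either direction by limma, with 3 higher and 2 lower at an unadjusted p under 0.05 and a median log2 fold change of -0.03. With normexp background correction, KLF13 was called lower (mean -0.54; limma adjusted p = 0.047). OVOL2, the nearest relative of OVOL1, was at 2.67, 2.37, and 2.72 after siCtrl in HSC-3, KON, and Ca9-22 and at 3.37, 2.40, and 2.67 after siDLEU1-2 (mean log2 fold change 0.22 ± 0.41; limma adjusted p = 0.514). ESRP2, which shares the splicing role of ESRP1, had a mean log2 fold change of -0.24 ± 0.39 (limma adjusted p = 0.465), which was -0.44 without HSC-3 and -0.052 without Ca9-22. Thus no relative of OVOL1 or ESRP1 in the list was called.

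Among 17 other epithelial regulators, 1 rose and 3 fell by limma, with 5 higher and 3 lower at an unadjusted p under 0.05, and the median log2 fold change was 0.15. PRDM1, a repressor that acts in terminal differentiation, rose on the log2 scale by 1.38 (HSC-3), 1.94 (KON), and 2.20 (Ca9-22; mean 1.84 ± 0.42; adjusted p = 0.0251). The dimmer PRDM1 probe rose by 0.71, 1.86, and 1.32 and was not called (mean 1.30 ± 0.58; limma adjusted p = 0.0512). The average of both probes was called (mean 1.57; limma adjusted p = 0.0308). TP63, the master factor of basal squamous cells, fell from 0.77, -0.15, and -0.40 to -1.61, -2.50, and -3.08 in HSC-3, KON, and Ca9-22 (mean log2 fold change -2.46 ± 0.18; adjusted p = 0.0227), where 2 of the 3 siDLEU1-2 arrays were well above background, and its mean with normexp background correction was -1.39. VDR, the vitamin D receptor, fell in all lines (mean -1.83 ± 0.39; adjusted p = 0.0247), as did BNC1, a zinc finger factor of basal keratinocytes (mean -1.19 ± 0.37; adjusted p = 0.0368). GATA3, a factor of keratinocyte differentiation named after its values were seen, had the largest positive mean of the list (2.21 ± 1.08; adjusted p = 0.0501), while with normexp background correction the mean was 1.42 and was called (adjusted p = 0.0173). GATA3 was called under 5 of 14 alternatives, with adjusted p from 0.0173 to 0.895. TP63, CDH1, and CD44 were picked out in the study from these arrays, so their direction here is not independent evidence. The paper also reported these directions by qRT-PCR in HSC-3, and for TP63 and CD44 by western blot.

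Of 8 EMT transcription factors, 3 passed the filter, and limma called 1 higher and 0 lower, with 1 lower at an unadjusted p under 0.05. SNAI1, a repressor of CDH1, was at -3.76, -0.65, and 0.96 after siCtrl in HSC-3, KON, and Ca9-22 and at -1.66, 1.19, and 1.78 after siDLEU1-2 (mean log2 fold change 1.59 ± 0.68; adjusted p = 0.0459), and the HSC-3 array after siCtrl was not well above background. With normexp background correction, the SNAI1 mean was 0.97 and was called (adjusted p = 0.0383). ZEB1 was too dim to measure in HSC-3, and its levels in KON and Ca9-22 were -0.90 and -1.51 after siCtrl and -1.40 and -1.50 after siDLEU1-2. ZEB2 was well above background on 1 array, that of Ca9-22 after siDLEU1-2, where its brightest probe was at -0.11, against -5.07 after siCtrl. Its other 2 probes were well above background on no array. SNAI2, which also represses CDH1, had log2 fold changes of -1.48 (HSC-3), -1.36 (KON), and -0.37 (Ca9-22; mean -1.07 ± 0.61; limma adjusted p = 0.077), and TWIST1 had a mean of 0.25 ± 1.27 with both signs among the lines (adjusted p = 0.782). Neither was called.

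Of 15 epithelial genes downstream of these regulators, 12 were tested, and limma called 5 higher and 2 lower, 1 of which (IVL) was detected after siCtrl alone, with 9 higher and 2 lower at an unadjusted p under 0.05 and a median log2 fold change of 1.06. CDH1, which encodes E-cadherin, rose from 3.42, 3.50, and 3.34 to 6.54, 6.43, and 6.04 in HSC-3, KON, and Ca9-22 (mean log2 fold change 2.92 ± 0.21, SD, n = 3; limma adjusted p = 0.0227). CLDN4, a tight junction claudin, rose by a mean of 1.87 ± 0.85 (adjusted p = 0.0469), TGM1, a transglutaminase of the cornified envelope, by 1.53 ± 0.18 (adjusted p = 0.0247), and SPINT1, an inhibitor of membrane serine proteases, by 1.15 ± 0.19 (adjusted p = 0.0297). The fifth gene that rose was CLDN7, another claudin. CLDN3 was not tested because it was dim in HSC-3, and was 11.65-fold higher in KON and 10.14-fold higher in Ca9-22. DSG1 and TGM5, also not tested, were well above background on no array. CLDN4 was not called with centering on the median of each array (mean 1.80; adjusted p = 0.053). ERBB3, a receptor of the epidermal growth factor receptor family, fell (mean -0.82 ± 0.12; adjusted p = 0.0404). With the measured ERBB3 probes averaged, the mean was -0.47 and was not called (adjusted p = 0.109). IVL, which encodes involucrin of the cornified envelope, was well above background on all 3 siCtrl arrays and on 0 of 3 siDLEU1-2 arrays, so the filter passed it only through the group where it was high. Its level was at least 1.23-fold lower (measured means -3.17 after siCtrl and -4.53 after siDLEU1-2; adjusted p = 0.0363), and it was not called with normexp (-0.26; adjusted p = 0.168) or when dim values were set to the floor of detection (-0.29; adjusted p = 0.352).

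The list of 10 transcripts spliced by ESRP proteins held 1 gene that fell and 0 that rose by limma, with 1 higher and 2 lower at an unadjusted p under 0.05, and its median log2 fold change was 0.09. The gene that fell was CD44, the receptor of hyaluronan, by its brighter probe (mean -3.15 ± 0.39; adjusted p = 0.0227), while the dimmer CD44 probe had a mean of 1.05 ± 0.63 (adjusted p = 0.0845), and the average of both was -1.05 (adjusted p = 0.0305). FGFR2, a fibroblast growth factor receptor, had a mean of -1.10 ± 0.89 (adjusted p = 0.129), which was -0.67 without HSC-3 and -1.56 without Ca9-22. The files assign the CD44 probes to different transcripts of the gene, and their means had opposite signs. Each probe reads 1 site of a transcript, and no splice ratio was computed.

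**Figure D4:**
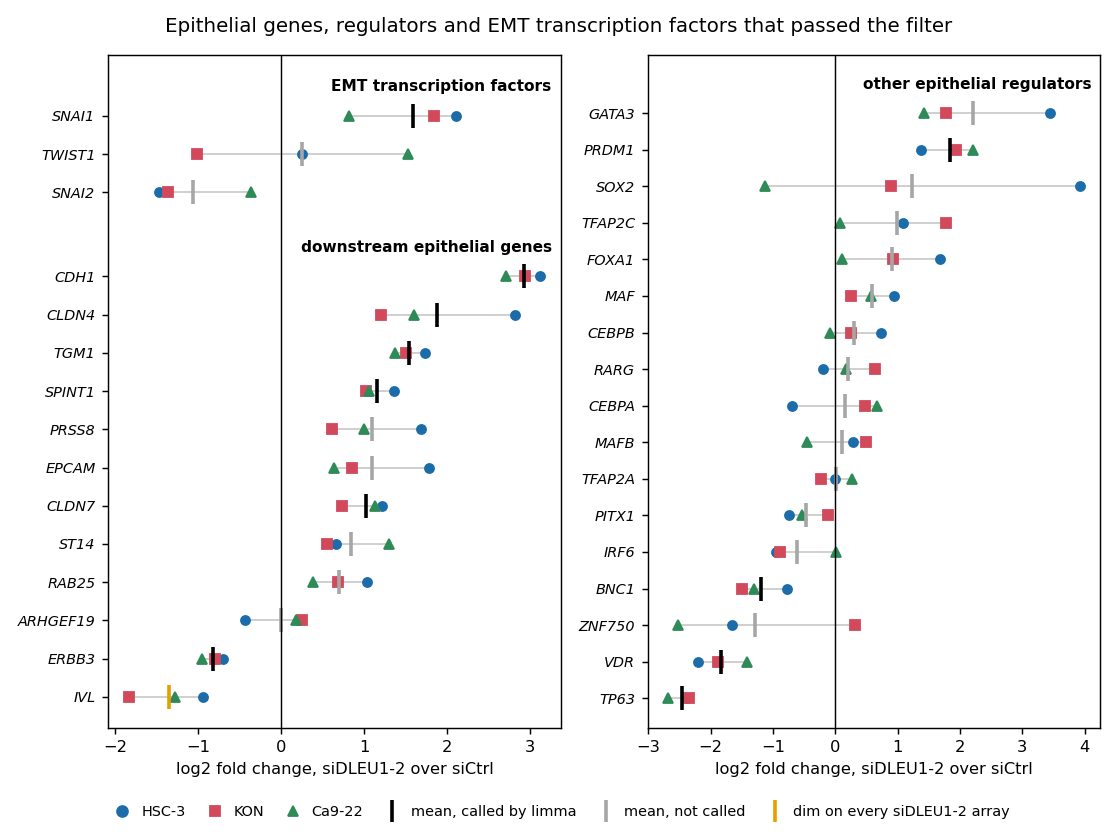
Log2 fold change of siDLEU1-2 over siCtrl (x axis) for the tested genes of 3 lists (y axis, ordered by mean), with a marker per cell line and a vertical tick for the mean, black where limma called the gene, gray where it did not, and orange for IVL, which was dim on every siDLEU1-2 array. Among downstream epithelial genes, 5 of the black ticks lie to the right of 0, led by CDH1 (2.92), and ERBB3 (-0.82) lies to the left. The IVL tick is its measured mean, for which only a bound of at least 1.23-fold lower holds. TP63 (-2.46) is the lowest of the other regulators.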

How the data were processed

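Total RNA (100 ng) of 6 samples was labeled with Cy3 and hybridized to Agilent SurePrint G3 Human GE v2 arrays. The files that the authors deposited come from the Feature Extraction software (version 10.7.3.1) and give a linear intensity per spot, from which the software had already removed background and spatial trends, with no scaling between arrays. Probe names and hg19 coordinates are those of the files, and whether a probe lies in an exon or UTR was not looked up, because no hg19 annotation was used here.

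From these, log2 of the processed signal minus the 75th percentile of the array was taken. Control and outlier spots were left out, spots of a probe were averaged, and there was no saturated spot. A probe counted as detected when 50% or more of its spots were well above background. Tested were the 19956 probes detected, in each line, on 1 array or both. The number of arrays limits the precision. The models were fitted by limma 3.58.1 (R 4.3.3), with siRNA and cell line as terms and Benjamini-Hochberg adjustment over all tested probes. Both arrays of a pair come from 1 cell line, and deviations from the siRNA means correlated within pairs at 0.83, 0.81, and 0.82. Nothing in the labels says that cultures were repeated. The p-values of the main fit rest on the spread left after the siRNA and line terms. This spread is how far the siRNA response differed between lines, and the tests between lines use it too. An exact permutation test over 3 pairs cannot reach 0.05, so none was run. The script was tested on simulated data.

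The genes named are DLEU1, the 9 genes with every probe, of each list the called genes (up to 4 of the largest mean change) with CDH1, TP63, and CD44, and the 2 nearest genes of each of the 9. Other genes were named after their values were seen. 1 further leukocyte marker is not reported here, and the list was summed without it. The genes and lists were chosen with earlier results of these data known. Of 34423 gene names, 20446 were found in the RefSeq table of GRCh38.p14. Alternatives changed the scaling (quantile, median, or the 75th percentile of detected probes), the background (normexp, offset 50), the source (the authors' series table of the same intensity, rounded), the filter (none, or detection on all 6 arrays), dim values (raised to a floor), the lines (each left out), the model (no block, or the methods' t-test), the fold threshold (3-fold), and the probes (all of a gene averaged). The paper's methods name Student's t-test for quantitative variables in general. For the arrays, the paper reported changes over 2-fold in all 3 lines.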

Additional observations from a re-analysis of the deposited data

Results flagged for a closer look

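KLF4 was more than 2-fold higher after siDLEU1-2 in HSC-3 and KON and lower in Ca9-22. HSC-3 had a log2 fold change of 1.60, KON of 1.21, and Ca9-22 of -0.59, a range of 2.20, and the difference was not tested because each line had 1 array per siRNA.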

How the results depend on the processing

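limma called 1 of the 9 genes (OVOL1). The count was 2 with normexp (KLF5 was added), 0 with no filter on dim probes, 0 with no replicate block (1 at an unadjusted p under 0.05), 0 with the methods' t-test (1 unadjusted), and 0 to 1 with a line left out. OVOL1 kept its direction under all 14 alternatives (mean log2 fold change 1.48 to 1.96), with adjusted p from 0.0179 to 0.652. It was not called with no filter (0.151), no replicate block (0.467), the methods' t-test (0.652), without HSC-3, or without KON. GRHL2 was 0.24 with its probes averaged and reversed to -0.041 with centering on the median. It lay between -0.071 (without HSC-3) and 0.096 with a line left out. OVOL2 lay between -0.012 (without HSC-3) and 0.36 in the same way, and TWIST1 between -0.39 (without Ca9-22) and 0.88 (without KON). The genes over 2-fold in all lines were 0 at a 3-fold threshold and 1 to 3 with a line left out. The genes that differed between lines were 2 with no filter and 1 to 4 with a line left out.

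Of the genes of the 5 lists, limma called 13. This became 16 with normexp, 0 with no filter (27 unadjusted), 0 with no replicate block (12 unadjusted), 0 with the methods' t-test (6 unadjusted), and 0 to 5 with a line left out. Over all tested probes, 1697 were called, 0 with no filter, no replicate block, or the methods' t-test, 0 without HSC-3 or KON, and 244 without Ca9-22. The cause of these changes was not tested.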
